A study of Homo sapiens with 6 samples.

Results

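The genes described here build, fold and clear proteins in the endoplasmic reticulum (ER). They were taken by gene symbol from a list of 56 names: stress sensors and their transcription factors, chaperones, disulfide and prolyl isomerases, and the machinery of ER-associated degradation (ERAD). Of these, 55 of the 17153 genes in the files carried a listed symbol. DERL3, a derlin of the ERAD channel, was not analysed here. The values are FPKM, sequenced fragments scaled to gene length and to the size of the library, so that levels of different genes can be set side by side.

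The cells were SNU449, an established human hepatocellular carcinoma line. One group had received an siRNA against OXTR, the oxytocin receptor gene (siOXTR, 3 libraries), and the other a control siRNA (siControl, 3 libraries), and RNA was taken 48 h after transfection in both. An siRNA silences a gene by guiding the cell's own nuclease to its mRNA. Neither its sequence nor whether several were mixed is stated, and a single line was studied, so what belongs to the loss of OXTR and what to the siRNA itself cannot be told apart. The labels do not say whether libraries of a group came from separate cultures. The p-values then reflect the spread among these libraries alone, and that spread may be technical.

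The ER holds newly made secreted and membrane proteins until they are folded. HSPA5 (BiP), an HSP70 chaperone, binds unfolded stretches and also keeps the stress sensors inactive. When it is drawn away, IRE1 (encoded by ERN1) splices XBP1 mRNA into the form that encodes an active transcription factor, ATF6 moves to the Golgi and is cut into a transcription factor, and PERK slows translation and thereby favours ATF4. ATF6 and XBP1 are known for raising chaperones and ERAD genes. ATF4 and its partner CHOP (DDIT3) act on amino acid supply, redox balance and cell death, and other kinases that respond to different stresses feed into the same ATF4 arm.

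The FPKM of all genes summed to 424168 to 429456 per siOXTR library and to 412464 to 415902 per siControl library, and the sequencing depth is unknown. Pearson correlations of log2 values over the genes tested were 0.997 to 0.998 within a group and 0.922 to 0.923 across the groups. OXTR was at 6.03, 6.11 and 6.14 FPKM in the siOXTR libraries and at 26.47, 26.56 and 24.56 FPKM in the siControl libraries. Defining hepatocyte markers were at or near 0: ALB did not exceed 0.14 FPKM and APOB was listed at 0 in all 6 libraries. The 8 hepatocyte markers with values, of 10 listed, summed to 4.15 to 4.82 FPKM in siOXTR and 43.5 to 44.3 FPKM in siControl, and without FGB to 0.94 to 1.13 FPKM in siOXTR and 1.46 to 1.87 FPKM in siControl. The keratins KRT8, KRT18 and KRT19 summed to 169.6 to 173.2 FPKM in siOXTR and 123.5 to 128.0 FPKM in siControl. Nearly all of it was KRT8 and KRT18, as KRT19 did not exceed 0.31 FPKM in any library. Leukocyte and endothelial markers (5 of 6 listed) summed to 10.6 to 12.7 FPKM in siOXTR and 6.47 to 7.63 FPKM in siControl, most of it CD68, a lysosomal protein gene. The part of these differences in the results was not tested.

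Some promoters of these genes hold elements that ER stress factors are known to bind. The elements searched were ERSE (CCAAT, 9 bases of any kind, CCACG), ERSE-II (ATTGG, 1 base of any kind, CCACG) and the UPRE core (TGACGTGG). Both strands were searched in RefSeq promoter windows of GRCh38.p14, each running from 250 bases before to 50 bases after an annotated start. Windows existed for 52 of the 55 genes. ERSE was found in 8 of these (15.4%), against 25 of all 27305 genes with a window (0.0916%). ERSE-II was found in 3 (5.77%), against 0.0696% of all genes, and the UPRE core in 5 (9.62%), against 0.927%. Among the 9673 tested genes with a window, the shares were 0.165% for ERSE, 0.134% for ERSE-II and 1.16% for the UPRE core. The genes were listed for their part in ER folding and stress, and the elements for their known binding by ER stress factors. An excess could come from that choice alone, and it was described and not tested. One UPRE core, in HYOU1, overlapped an ERSE-II. A match describes the letters in this window and says nothing of binding in these cells.

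For each ERSE or ERSE-II match in the 55 genes, a stretch of 30 bases is shown. The genes concerned moved in opposite directions. The stretches read 5′ to 3′ on the strand of the gene, with the match in capitals. A match that begins with CGTGG lies on the other strand. The stretches of ERO1B and CANX were added after the values were seen.
HERPUD1, ERSE-II, chr16:56932016-56932045, plus strand: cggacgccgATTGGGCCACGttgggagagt
SDF2L1, ERSE-II, chr22:21642105-21642134, plus strand: cctcggaagCGTGGACCAATcaaaaccctc
HYOU1, ERSE-II, chr11:119057264-119057293, minus strand: ggcctgggaCGTGGTCCAATgagtacgcgc
HYOU1, ERSE-II, chr11:119057370-119057399, minus strand: gccccgtgaCGTGGTCCAATcccaggccga
XBP1, ERSE, chr22:28800597-28800626, minus strand: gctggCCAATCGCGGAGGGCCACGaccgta
HSPA5, ERSE, chr9:125241385-125241414, minus strand: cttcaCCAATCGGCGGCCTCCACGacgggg
CRELD2, ERSE, chr22:49918549-49918578, plus strand: cctctCGTGGCGAACTCGGATTGGgccata
HSP90B1, ERSE, chr12:103930211-103930240, plus strand: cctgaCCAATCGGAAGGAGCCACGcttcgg
HSP90B1, ERSE, chr12:103930316-103930345, plus strand: gggtgCGTGGTGCGGCGCGATTGGtgggtt
ERO1B, ERSE, chr1:236282177-236282206, minus strand: gcccgCGTGGTCCCGCCTCATTGGccgccg
PDIA6, ERSE, chr2:10812847-10812876, minus strand: ccggaCCAATGAGCCGCAGCCACGgcttgg
CANX, ERSE, chr5:179698773-179698802, plus strand: cccggCCAATCTTCACACTCCACGaagaat
CALR, ERSE, chr19:12938379-12938408, plus strand: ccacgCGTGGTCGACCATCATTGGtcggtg

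The 11 genes with ERSE or ERSE-II did not move as a block. In siOXTR, 6 (54.5%) were higher (HERPUD1, XBP1, HSPA5, SDF2L1, CRELD2 and HYOU1) and 5 (45.5%) lower (CALR, CANX, PDIA6, ERO1B and HSP90B1). Their log2 changes lay between -0.77 and 3.26, with a median of 0.39. The 41 genes with a window and neither element had a median of 0.17, with 24 higher (58.5%), 14 lower (34.1%) and 3 not called. Of all genes tested, 37.7% were higher and 44.8% lower. HSPA5 and CALR, which both carry an ERSE, had log2 changes of 1.71 and -0.77. A further motif was searched after the values had been seen: the CARE core (TGATG, 1 base of any kind, AA) that ATF4 and its partners are known to bind. HERPUD1 held it between 176 and 169 bases upstream of its start, at chr16:56931955-56931984 on the plus strand, again with the match in capitals and on the other strand.
HERPUD1, CARE core: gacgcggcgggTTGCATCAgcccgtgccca
CREB3L2 was the other of the 55 genes to hold the CARE core (2 of 52, 3.85%), against 4.46% of all genes with a window. Among tested genes with a window the share was 2.65%.

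**Figure D1:**
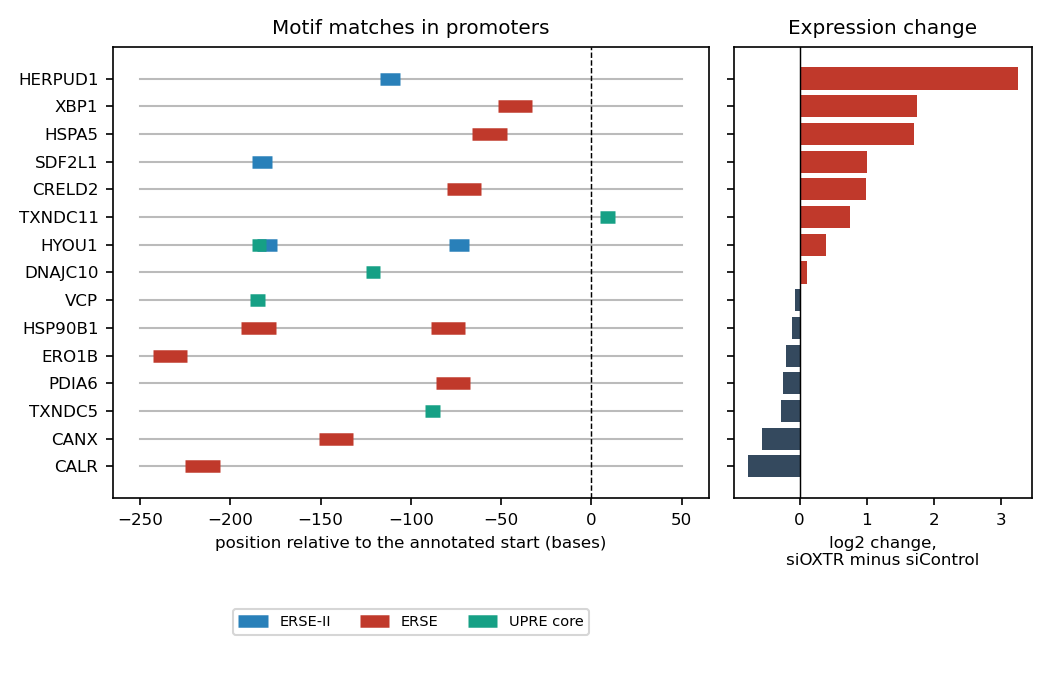
Left, position of each ERSE, ERSE-II and UPRE core match in the promoter window, in bases from the annotated start (dashed line), for the 15 genes with a match. Right, log2 change of the same genes (siOXTR minus siControl). Genes run from HERPUD1 (3.26) to CALR (-0.77), and ERSE matches occur both in XBP1 and HSPA5 near the top and in CALR at the bottom.

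Nearly all of the 55 genes differed between the groups, in both directions. Each reached 1 FPKM in 3 or more libraries and was tested with limma on log2(FPKM + 1), with p-values adjusted over all 11655 genes tested and a threshold of 0.05. In siOXTR, 31 were higher (56.4%), against 37.7% of all genes tested, and 21 were lower (38.2%), against 44.8% of all genes. In total 52 were called (94.5%), where 82.5% of all genes were. Values of siOXTR and siControl were fully separate in 52 of the 55 genes (94.5%), against 83.0% of all genes. A high share called was common to the whole transcriptome of these libraries. By at least 1 on the log2 scale, 9 genes were higher (16.4%), against 4.71% of all genes, and 3 were lower (5.45%), against 6.84% of all genes. Under median-ratio scaling 1 of these 3, UGGT1, stayed past that size. The balance of all genes also depended on scaling, with 4903 higher and 4580 lower under median-ratio scaling, against 4395 higher and 5218 lower without it, while the members stood at 32 higher and 19 lower. The median log2 change was 0.17, beside -0.06 for all genes tested. In bulk RNA, a change in the number of cells of a kind and a change of RNA per cell cannot be told apart.

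**Figure D2:**
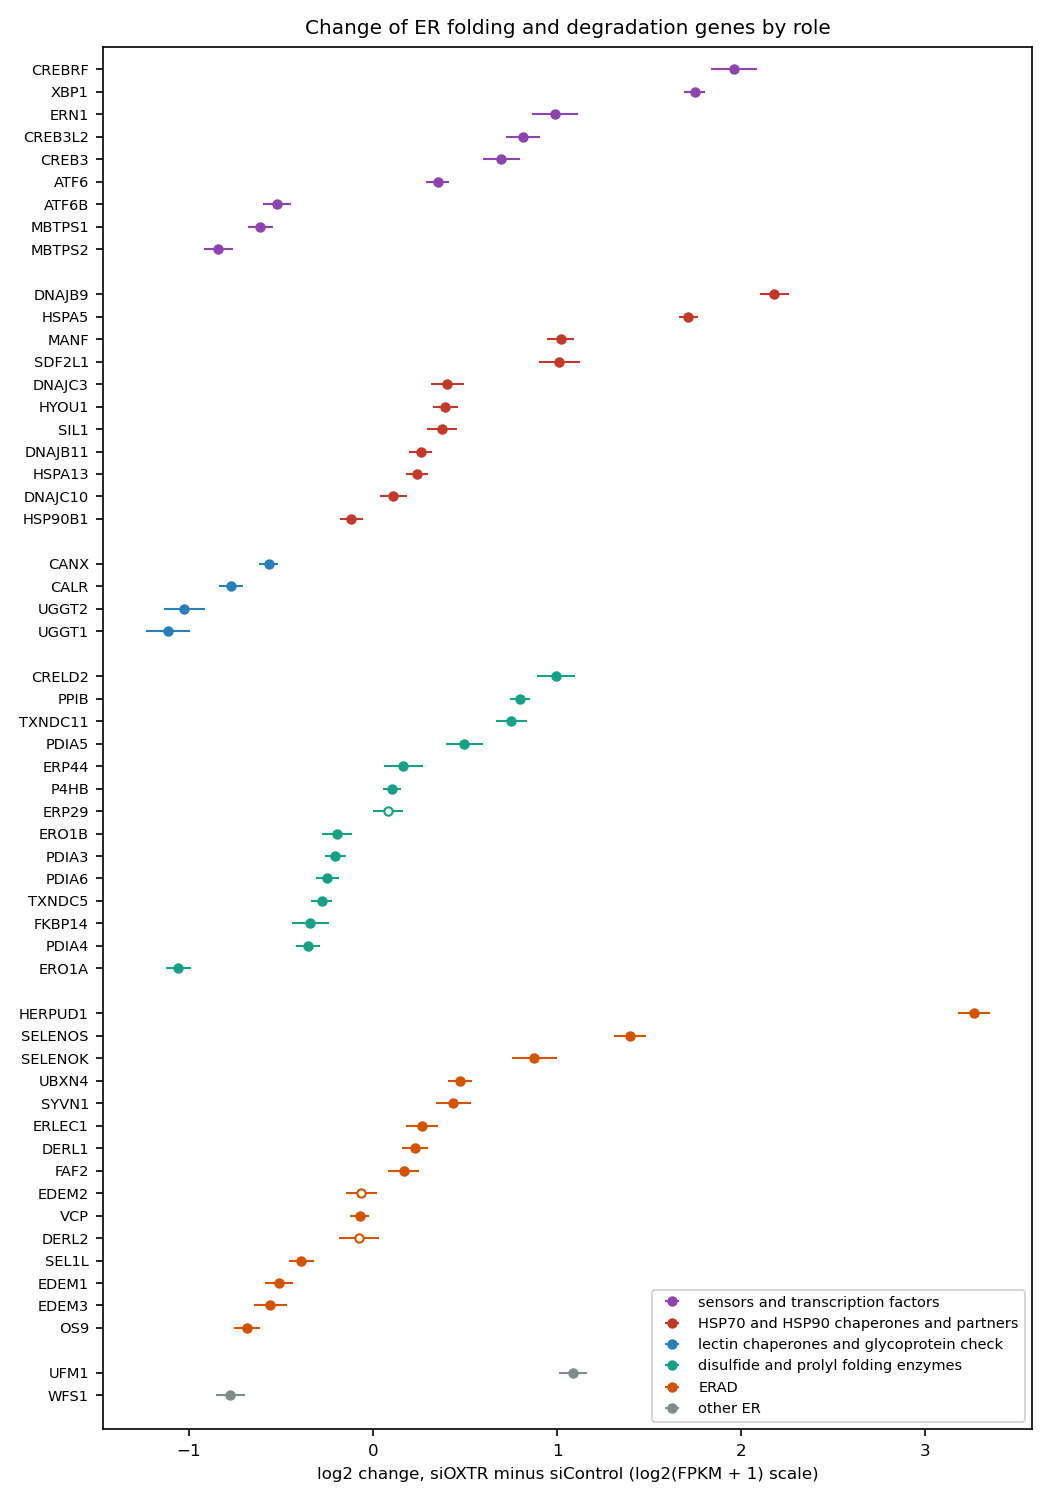
Log2 change (siOXTR minus siControl, on the log2(FPKM + 1) scale) of each of the 55 genes, grouped by role. Bars are 95% confidence intervals from limma (n = 3 libraries per group), and open symbols mark ERP29, DERL2 and EDEM2, which were not called. All 4 lectin chaperone genes lie left of zero and 10 of 11 HSP70 and HSP90 genes right of it.

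Of the sensors and their transcription factors, 6 were higher (66.7%, against 37.7% of all genes tested) and 3 lower (33.3%, against 44.8%) in siOXTR. XBP1, the transcript that IRE1 splices, was at 123.75, 120.47 and 119.46 FPKM in the siOXTR libraries and at 35.26, 35.5 and 35.42 FPKM in the siControl libraries. The groups did not overlap, and the level was 3.43-fold higher in siOXTR (log2 change 1.75, SE 0.03, adjusted p = 2.22e-12). The files hold a single value per gene, so spliced and unspliced XBP1 were not told apart. ERN1, which encodes IRE1 itself, was far less abundant, at 7.92, 7.93 and 7.8 FPKM in siOXTR and at 3.81, 3.34 and 3.3 FPKM in siControl, a 2.26-fold higher level (log2 change 0.99, SE 0.06, adjusted p = 4.71e-08). ATF6 moved less: it was at 30.21, 30.17 and 30.57 FPKM in siOXTR and at 23.74, 23.37 and 23.55 FPKM in siControl (log2 change 0.35, SE 0.03, adjusted p = 8.35e-07).

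The proteases that release ATF6 went the other way. MBTPS1, which makes the first Golgi cut, averaged 26.6 ± 0.495 FPKM in siOXTR and 41.2 ± 0.604 FPKM in siControl (SD, n = 3 each). MBTPS2, which makes the second cut inside the membrane, averaged 13.6 ± 0.382 FPKM in siOXTR and 25.2 ± 0.416 FPKM in siControl (SD, n = 3 each), with log2 changes of -0.61 and -0.84 for the pair. ATF6B, the paralog of ATF6, was lower too (log2 change -0.52, SE 0.03, adjusted p = 1.41e-07). The same proteases also cut the SREBP factors of sterol synthesis and CREB3-type factors, so their levels bear on more than ATF6.

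CREBRF had the largest log2 change among the regulators. It encodes a protein that promotes the breakdown of CREB3, an ER-anchored transcription factor. CREBRF was at 9.58, 10.75 and 10.03 FPKM in siOXTR and at 1.8, 1.91 and 1.85 FPKM in siControl, 5.46-fold higher (log2 change 1.96, SE 0.06, adjusted p = 2.41e-10). CREB3 itself was also higher, with a mean of 25.8 ± 1.46 FPKM in siOXTR and 15.5 ± 0.465 FPKM in siControl (SD, n = 3 each, log2 change 0.70). CREB3L2, a relative that drives secretory pathway genes in mouse cartilage, had a log2 change of 0.81.

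Among the HSP70 and HSP90 chaperones and their partners, 10 of 11 were higher in siOXTR (90.9%, against 37.7% of all genes tested). HSP90B1 was lower. HSPA5 (BiP) was at 831.1, 818.31 and 822.3 FPKM in siOXTR and at 250.19, 254.38 and 247.78 FPKM in siControl. Every siOXTR library lay far above every siControl library, a 3.29-fold higher level (log2 change 1.71, SE 0.02, adjusted p = 1.23e-12). HSP90B1 (GRP94), the ER form of HSP90 and a standard partner of BiP in stress induction, was at 394.06, 371.73 and 377.4 FPKM in siOXTR and at 407.39, 417.66 and 414.77 FPKM in siControl. Its log2 change was -0.12 (SE 0.03, adjusted p = 0.0024), and under median-ratio scaling of the libraries it was -0.04 and not called (adjusted p = 0.367). The ratio of HSPA5 to HSP90B1 was 2.16 ± 0.0481 in siOXTR and 0.607 ± 0.00858 in siControl (SD, n = 3 each).

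The J proteins, which hand clients to BiP and set off its ATPase, spread widely. DNAJB9 (ERdj4), which also represses IRE1, was at 82.46, 76.6 and 78.55 FPKM in siOXTR and at 16.58, 16.24 and 17.23 FPKM in siControl, 4.75-fold higher (log2 change 2.18, SE 0.04, adjusted p = 5.13e-12). The others changed far less. DNAJC3 (p58IPK), a co-chaperone, was at 20.84, 19.76 and 19.11 FPKM in siOXTR and at 15.06, 14.49 and 14.8 FPKM in siControl (log2 change 0.40). DNAJB11 (ERdj3) was at 67.64, 66.27 and 68.58 FPKM in siOXTR and at 55.57, 55.61 and 57.54 FPKM in siControl (log2 change 0.26). DNAJC10 (ERdj5), a reductase that opens disulfides before degradation, had a log2 change of 0.11. None of these groups overlapped, as was the case for 83.0% of all genes tested, and the spread between libraries may be technical.

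Other partners of BiP were higher too. MANF, a secreted stress protein that slows nucleotide exchange on BiP, was at 155.87, 152.71 and 145.72 FPKM in siOXTR and at 76.16, 74.83 and 71.58 FPKM in siControl, 2.04-fold higher (log2 change 1.02, SE 0.03, adjusted p = 5.90e-10). SDF2L1, which keeps misfolded clients of ERdj3 soluble, was at 81.26, 74.6 and 73.52 FPKM in siOXTR and at 40.26, 36.21 and 35.76 FPKM in siControl (log2 change 1.01, SE 0.05, adjusted p = 1.46e-08). The nucleotide exchange factors of BiP moved less. HYOU1 (GRP170) was at 57.28, 58.86 and 61.19 FPKM in siOXTR and at 44.62, 44.75 and 44.86 FPKM in siControl (log2 change 0.39, SE 0.03, adjusted p = 4.69e-07). SIL1 had a log2 change of 0.37 and HSPA13, an HSP70 relative of the microsomes, of 0.24.

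**Figure D3:**
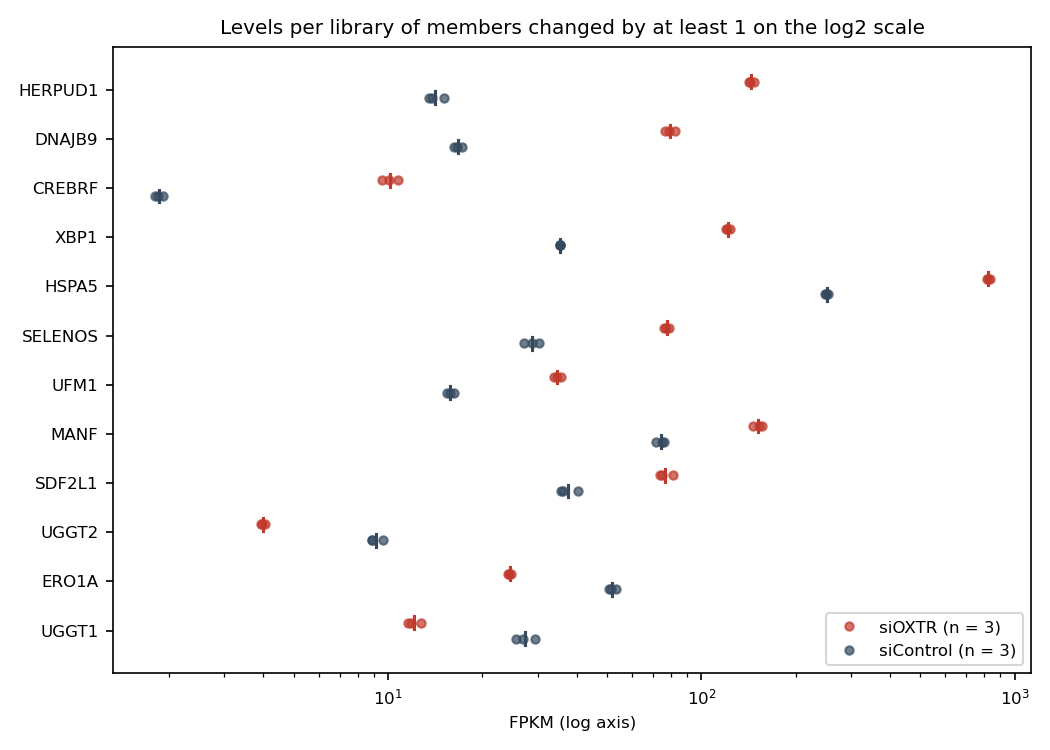
FPKM per library (log axis) of the 12 genes called with a log2 change of at least 1 in either direction. Points are libraries and vertical ticks are group means, siOXTR above siControl for each gene. Genes run from HERPUD1 (10.2-fold higher) down to UGGT1. They were picked for large called changes, so the separation of the groups follows largely from that choice. Groups were separate in 83.0% of all genes tested.

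All 4 genes listed here for the lectin cycle, in which sugar-binding chaperones hold glycoproteins until they are folded, were lower in siOXTR. Lower levels were called for 44.8% of all genes tested. UGGT1, the folding sensor that marks unfolded glycoproteins with glucose, was at 11.57, 12.77 and 11.86 FPKM in siOXTR and at 29.41, 25.65 and 26.95 FPKM in siControl, 2.27-fold lower in siOXTR (log2 change -1.12, SE 0.05, adjusted p = 1.14e-08). Its paralog UGGT2 was at 4.05, 3.92 and 3.96 FPKM in siOXTR and at 8.89, 9.6 and 8.91 FPKM in siControl (log2 change -1.03, SE 0.05, adjusted p = 1.19e-08). The lectin chaperones themselves fell by less. CALR (calreticulin), the soluble form, was at 316.68, 306.82 and 322.24 FPKM in siOXTR and at 554.29, 539.33 and 524.86 FPKM in siControl (log2 change -0.77, SE 0.03, adjusted p = 1.66e-09). CANX (calnexin), the membrane-bound form, averaged 178 ± 2.52 FPKM in siOXTR and 264 ± 3.61 FPKM in siControl (SD, n = 3 each, log2 change -0.57). Summed over the 4 genes, the level was 509 ± 9.05 FPKM in siOXTR and 840 ± 12.6 FPKM in siControl (SD, n = 3 each).

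Of 14 disulfide and prolyl folding enzymes, 6 were higher (42.9%, against 37.7% of all genes tested). A further 7 of the 14 were lower, where 44.8% of all genes were, and ERP29 was not called. The clearest fall was in ERO1A, the oxidase that recharges protein disulfide isomerase with oxidising power and that also responds to hypoxia. ERO1A was at 24.37, 24.14 and 24.71 FPKM in siOXTR and at 53.54, 50.72 and 51.37 FPKM in siControl, 2.13-fold lower in siOXTR (log2 change -1.06, SE 0.03, adjusted p = 2.63e-10). Its paralog ERO1B fell by 0.20 on the log2 scale. ERO1A is known in mouse cells as a target of CHOP, whose own gene DDIT3 was higher here. Whether the levels of ERO1A and DDIT3 are linked was not tested. P4HB, the main protein disulfide isomerase that ERO1A serves, was at 499.48, 504.24 and 508.36 FPKM in siOXTR and at 473.51, 464.77 and 468.93 FPKM in siControl, a log2 change of 0.10 that was not called under quantile scaling (0.02, adjusted p = 0.365).

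The other disulfide isomerases and their relatives moved in both directions. PDIA4 (ERp72) was at 108.34, 105.76 and 108.94 FPKM in siOXTR and at 136.72, 134.21 and 142.61 FPKM in siControl (log2 change -0.35, SE 0.03, adjusted p = 7.62e-07). PDIA6, which restrains IRE1 signalling, was at 214.21, 201.46 and 207.55 FPKM in siOXTR and at 242.36, 248.93 and 248.84 FPKM in siControl (log2 change -0.25, SE 0.03, adjusted p = 1.12e-05). PDIA3 (ERp57), the partner of calnexin and calreticulin, and TXNDC5 had log2 changes of -0.20 and -0.28. PDIA5 and TXNDC11 were higher by 0.50 and 0.75, and ERP44, which retrieves ERO1 proteins from the Golgi, by 0.17. ERP29, a PDI relative without the catalytic cysteines, had a log2 change of 0.08 with a 95% confidence interval of 0.002 to 0.17, and its libraries overlapped (adjusted p = 0.055).

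CRELD2, a putative disulfide isomerase that is secreted under stress, was at 29.15, 28.21 and 28.71 FPKM in siOXTR and at 14.8, 14.08 and 12.92 FPKM in siControl (log2 change 0.99, SE 0.05, adjusted p = 9.26e-09). The prolyl isomerases went separate ways. PPIB (cyclophilin B) averaged 353 ± 7.95 FPKM in siOXTR and 202 ± 1.19 FPKM in siControl (SD, n = 3 each, log2 change 0.80), whereas FKBP14 fell by 0.34.

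The composition of the most abundant folding transcripts differed between the groups. In siOXTR the order of mean FPKM was HSPA5, P4HB, HSP90B1, PPIB and CALR, and no neighbours in it overlapped. In siControl the order was CALR, P4HB, HSP90B1, CANX and HSPA5, with HSPA5 overlapping PDIA6, the next in line. The ratio of HSPA5 to CALR was 2.61 ± 0.0583 in siOXTR and 0.465 ± 0.0118 in siControl (SD, n = 3 each). Summed over all 55 genes, the level was 4833 ± 58.5 FPKM in siOXTR and 4036 ± 5.45 FPKM in siControl (SD, n = 3 each), and 4009 ± 52.5 against 3785 ± 5.45 FPKM without HSPA5. With HSPA5 included, the sum made up 1.13% of all FPKM in siOXTR and 0.975% in siControl. The sum without HSPA5 was not scaled to the FPKM total of a library, which was also higher in siOXTR.

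**Figure D4:**
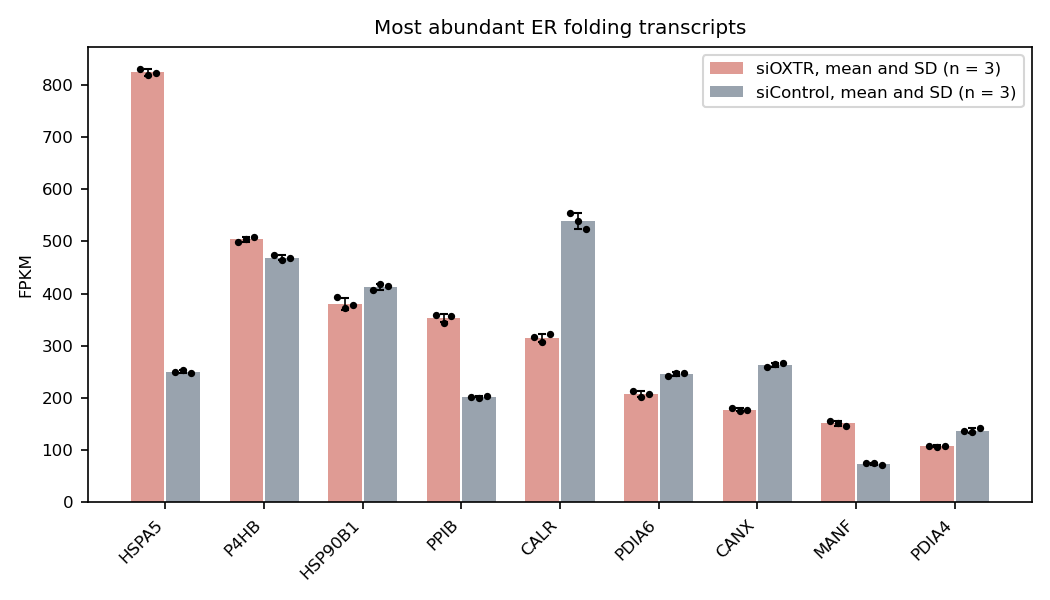
FPKM of the 9 genes among the 8 most abundant of either group. Bars are means, error bars SD and points the 3 libraries per group, with siOXTR left of siControl. HSPA5 is the tallest bar in siOXTR and CALR the tallest in siControl.

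In ERAD, misfolded proteins are recognised, drawn out of the ER and handed to the proteasome. Here 8 of 15 genes were higher (53.3%, against 37.7% of all genes tested), 5 lower (33.3%, against 44.8%) and 2 not called. HERPUD1 had the largest change of all 55 genes and ranked 10 among the increases of all 11655 genes tested. It encodes a small membrane protein with a ubiquitin-like domain that organises the HRD1 ubiquitin ligase. HERPUD1 was at 142.88, 141.9 and 147.23 FPKM in siOXTR and at 13.51, 13.78 and 15.03 FPKM in siControl, 10.2-fold higher (log2 change 3.26, SE 0.04, adjusted p = 6.71e-13). The ligase it organises moved little by comparison: SYVN1 (HRD1) averaged 17.6 ± 0.585 FPKM in siOXTR and 12.7 ± 0.53 FPKM in siControl (SD, n = 3 each, log2 change 0.44).

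SEL1L, the scaffold that ties HRD1 to its lumenal receptors, was lower. It was at 26.92, 27.25 and 27.31 FPKM in siOXTR and at 34.78, 36.44 and 36.43 FPKM in siControl (log2 change -0.39, SE 0.03, adjusted p = 6.23e-07). HERPUD1 was 5.3 ± 0.092 times as abundant as SEL1L in siOXTR and 0.393 ± 0.0177 times in siControl (SD, n = 3 each). OS9, a lectin that brings glycoproteins to SEL1L, fell by 0.68, whereas ERLEC1, the other lectin of this kind, was higher by 0.27.

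Of the mannosidase-like genes that mark glycoproteins for degradation, EDEM1 and EDEM3 fell and EDEM2 was not called. EDEM1 was at 15.03, 14.88 and 15.33 FPKM in siOXTR and at 21.86, 21.41 and 22.47 FPKM in siControl (log2 change -0.51, SE 0.03, adjusted p = 1.76e-07). EDEM3 fell by 0.56. EDEM2 had a log2 change of -0.06 with a 95% confidence interval of -0.15 to 0.02 (adjusted p = 0.136), and the sign was positive under median-ratio scaling.

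At the membrane and in the cytosol, the small selenoproteins stood out. SELENOS, which links the derlins to the ATPase p97, was at 79.08, 76.04 and 77.27 FPKM in siOXTR and at 30.42, 28.8 and 27.24 FPKM in siControl, 2.69-fold higher (log2 change 1.40, SE 0.04, adjusted p = 1.96e-10). SELENOK, of the same complex, averaged 43.3 ± 2.15 FPKM in siOXTR and 23.2 ± 1.88 FPKM in siControl (SD, n = 3 each, log2 change 0.88). Their partners had smaller log2 changes. DERL1, a derlin of the channel, was higher by 0.23, and DERL2 was at 10.39, 10.23 and 11.39 FPKM in siOXTR and at 11.54, 10.94 and 11.43 FPKM in siControl, overlapping (log2 change -0.08, 95% confidence interval -0.19 to 0.03, adjusted p = 0.161).

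VCP, which encodes p97 itself, averaged 114 ± 1.32 FPKM in siOXTR and 120 ± 0.728 FPKM in siControl (SD, n = 3 each). Its log2 change of -0.07 was not called under quantile scaling (-0.04, adjusted p = 0.15) and became 0.01 under median-ratio scaling. The p97 recruiters UBXN4 and FAF2 were higher by 0.47 and 0.17. Outside these classes, UFM1, a ubiquitin-like modifier attached to ribosomes at the ER, was at 35.73, 33.86 and 34.51 FPKM in siOXTR and at 15.72, 15.44 and 16.27 FPKM in siControl (log2 change 1.09, SE 0.035, adjusted p = 5.43e-10). WFS1 (wolframin), an ER membrane protein that restrains ATF6, averaged 17.6 ± 0.384 FPKM in siOXTR and 30.8 ± 0.976 FPKM in siControl (SD, n = 3 each, log2 change -0.78).

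The outputs of the stress arms were then set side by side. The tested genes known as XBP1-type outputs were DNAJB9, DNAJB11, DNAJC3, EDEM1, DERL2, PDIA6 and SERP1, of which SERP1, a partner of the ER translocon, is not among the 55. Of these 7, 4 were higher (57.1%, against 37.7% of all genes tested) and 2 lower (28.6%, against 44.8%) in siOXTR. Their median log2 change was 0.26. SERP1 was at 96.03, 92.63 and 94.12 FPKM in siOXTR and at 33.98, 33.56 and 32.6 FPKM in siControl (log2 change 1.47). Of 9 ATF6-type outputs, 5 (55.6%) were higher (HSPA5, MANF, SDF2L1, CRELD2 and HYOU1) and 4 (44.4%) lower (CALR, SEL1L, PDIA4 and HSP90B1). Their median was 0.39. Against them, 37.7% of all genes tested were higher and 44.8% lower, so the lower share was close to that of all genes. HERPUD1, which both of these arms and ATF4 are known to reach, was kept out of the lists.

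All 14 PERK-type outputs were higher in siOXTR, against 37.7% of all genes tested. Of the 14, 13 (92.9%) were higher by at least 1 on the log2 scale, against 4.71% of all genes. Their median log2 change was 2.73. The values of several of them were known when the list was written, so their direction is a description. PPP1R15A, DDIT3, CEBPB and TRIB3 had the 4 smallest adjusted p of the list. CEBPB, a bZIP factor that pairs with ATF4 and CHOP, was at 364.48, 357.23 and 372.79 FPKM in siOXTR and at 55.94, 56.52 and 54.21 FPKM in siControl (log2 change 2.69, adjusted p = 2.86e-13). PPP1R15A (GADD34), which restores translation, was at 324.56, 315.95 and 331.22 FPKM in siOXTR and at 25.57, 25.74 and 25.19 FPKM in siControl. Its log2 change was 3.62 (adjusted p = 1.23e-13), and these groups lie far apart. DDIT3 was at 275.62, 249.29 and 262 FPKM in siOXTR and at 11.91, 11.48 and 12.51 FPKM in siControl (log2 change 4.34, adjusted p = 2.40e-13). TRIB3, a pseudokinase, was at 249.66, 249.55 and 256.11 FPKM in siOXTR and at 23.45, 26.1 and 24.74 FPKM in siControl (log2 change 3.30, adjusted p = 4.41e-13).

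The remaining PERK-type genes give the range. ASNS, SLC7A11 and CHAC1, which act in asparagine, cystine and glutathione metabolism, had log2 changes of 2.36, 2.58 and 2.81. The sestrin gene SESN2 and ATF3 were higher by 3.30 and 3.53, DDIT4 by 2.76, ATF4 by 2.05, NUPR1 by 1.75 and PSAT1, of serine synthesis, by 1.13. STC2, a secreted glycoprotein gene, had the smallest step, with 0.22. EIF2AK3, the gene of PERK itself, chosen after its value was seen, was at 9.3, 9.92 and 9.63 FPKM in siOXTR and at 8.16, 8.98 and 8.59 FPKM in siControl (log2 change 0.15, adjusted p = 0.0142). Of the 12 PERK-type genes with a promoter window, 3 (ASNS, ATF3 and CHAC1) held the CARE core and 0 held ERSE or ERSE-II. The CARE core was in 2.65% of tested genes with a window and in 4.46% of all genes with one.

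Among the 16 XBP1-type and ATF6-type outputs together, 5 were higher by at least 1 on the log2 scale (31.2%, against 4.71% of all genes tested). They were DNAJB9, HSPA5, SERP1, MANF and SDF2L1. The range of these 16, from -0.77 to 2.18, overlaps that of the PERK-type genes, from 0.22 to 4.34. The difference between the lists was described by counts and medians, with no test of it.

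**Figure D5:**
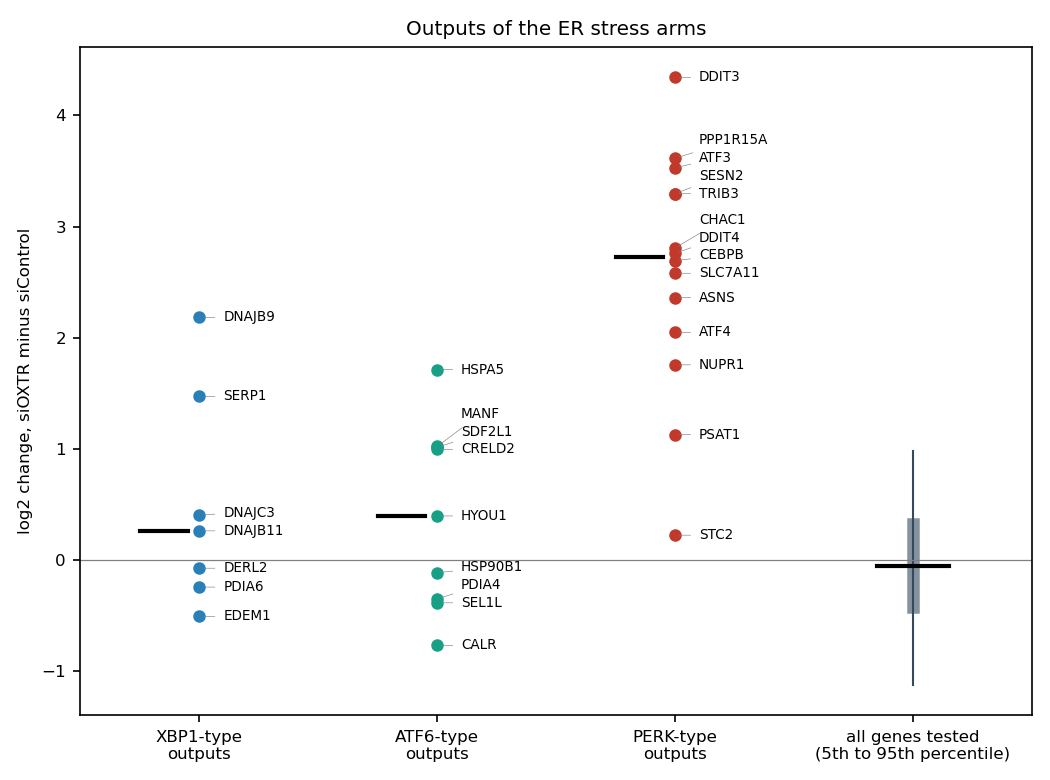
Log2 change (siOXTR minus siControl) of each tested gene of the XBP1-type (n = 7), ATF6-type (n = 9) and PERK-type (n = 14) lists, with black bars for the list medians (0.26, 0.39 and 2.73). The right column shows all 11655 genes tested, with a median of -0.06, a thick bar from the 25th to the 75th percentile and a thin line from the 5th to the 95th. The PERK-type genes all lie above 0, while both other lists lie on both sides of it.

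Related genes outside the 55 give the wider picture of the compartment. Of 35 other ER folding enzymes, 30 were tested, with a median log2 change of -0.40. In siOXTR, 6 were higher (20.0%, against 37.7% of all genes tested) and 20 lower (66.7%, against 44.8%). TMX1, a membrane-bound disulfide isomerase, was at 16.68, 16.16 and 16.27 FPKM in siOXTR and at 50.05, 52.24 and 50.83 FPKM in siControl (log2 change -1.58, SE 0.03, adjusted p = 1.54e-11). The sulfhydryl oxidase gene QSOX1 fell by 1.08 and the prolyl isomerase gene FKBP9 by 0.96. The largest increases were in MESD (0.39), a chaperone of LDL receptor relatives, PRDX4 (0.39), an ER peroxiredoxin, and DNAJB12 (0.37), a J protein of the membrane.

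Of 26 other ERAD genes, 13 were higher, where 37.7% of all genes tested were. Another 11 of the 26 were lower (42.3%, against 44.8% of all genes). The median log2 change of the 26 was 0.08. RNF185, a membrane ubiquitin ligase, averaged 32.3 ± 0.207 FPKM in siOXTR and 14.4 ± 0.516 FPKM in siControl (SD, n = 3 each, log2 change 1.12). UBE2J1, the ubiquitin-conjugating enzyme that works with HRD1, was higher by 0.71, and HERPUD2, the paralog of HERPUD1, by 0.65. The largest decreases were in TMEM129 (-0.79), which encodes an ER ubiquitin ligase, and UBQLN2 (-0.76), which encodes a shuttle to the proteasome.

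The assignment of reads limits some of these levels. Pseudogenes named after the gene exist in GENCODE release 29 for 6 of the 55: XBP1, PDIA3, ERP29, ERLEC1, SELENOK and FAF2. Exons of a gene on the opposite strand overlap 22 of the 55, among them DNAJB9, HSP90B1, CALR, CANX and CRELD2, and exons of a gene on the same strand overlap 8, among them ATF6B, HSP90B1, SYVN1 and TXNDC5. Neither the authors' handling of such reads nor any use of strand is stated in the labels or headers.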

How the data were processed

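Per the file headers, the authors deposited 1 FPKM value per gene and library, with 2 decimals and NCBI gene IDs and symbols. Libraries were made by the BGISEQ-500 protocol from Trizol lysates, per the labels' protocols. The sources used here do not give the aligner, counter, build, annotation or filters. Depth is unknown: among genes whose lowest value was 0.2 to 0.3 FPKM, 18.9% of 933 values between 1.5 and 3.5 times it fell within 0.1 of a whole multiple (20% for evenly spread values), so no count model was used.

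FPKM were transformed as log2(FPKM + 1). The 11655 genes reaching 1 FPKM in 3 or more of 6 libraries entered limma 3.58.1 (R 4.3.3), two-sided, with group as the factor, empirical Bayes moderation with a trend, and Benjamini-Hochberg adjustment over all of them. The log2 change is siOXTR minus siControl and understates changes of low genes; folds are ratios of mean FPKM. The fit was tested on simulated data. Exact permutation of 3 and 3 libraries gives no p under 0.1, so none is reported. Members, lists and tests were chosen with earlier results of these data known.

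Values in every library are given for members called with a log2 change of at least 1 and no overlap. They are also given for the XBP1-type and ATF6-type outputs, for ERN1, ATF6 and XBP1, and for the PERK-type genes with the smallest adjusted p. From the lists of other folding and ERAD genes, the 3 largest changes each way with a mean of at least 5 FPKM are named, apart from 1 gene that is not reported here. Others named with values in every library (P4HB, EIF2AK3) or by mean were added for their role. Promoters are RefSeq windows of GRCh38.p14, matched by NCBI gene ID. Alternatives were other pseudocounts, filters, scalings, robust moderation, the replicate block and leaving out each library.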

Additional observations from a re-analysis of the deposited data

How the results depend on the processing

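Across 14 other settings, 759 of 770 member results kept their direction and their side of the threshold, and 49 of 55 genes did so in all of them. Reversed signs occurred under median-ratio scaling only, for EDEM2 (0.013) and VCP (0.0081). Calls were lost under quantile scaling for P4HB (0.02) and VCP (-0.04) and under median-ratio scaling for HSP90B1 (-0.04). ERP29 was called without siControl library 1 (0.11, adjusted p = 0.0265), without siOXTR library 2 (0.11, adjusted p = 0.0268), with a filter at 5 FPKM, under median-ratio scaling and with the replicate block (adjusted p = 0.0267), and DERL2 without siOXTR library 3 (-0.12, adjusted p = 0.0388).

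The median of the PERK-type outputs was 2.80 and 2.81 at pseudocounts of 0.1 and 0.01, 2.69 under quantile and 2.81 under median-ratio scaling. Under median-ratio scaling the median was 0.25 for the members, 0.34 for the XBP1-type and 0.47 for the ATF6-type outputs, and under quantile scaling 0.23 for the members. The median of all genes moved by 0.06 under quantile and 0.07 under median-ratio scaling. The balance of all genes, 4395 higher and 5218 lower in siOXTR, turned to 4801 higher and 4714 lower under quantile and to 4903 higher and 4580 lower under median-ratio scaling. Leaving out a library in turn gave medians of 2.69 to 2.74 for the PERK-type, 0.37 to 0.42 for the ATF6-type and 0.25 to 0.28 for the XBP1-type outputs, 0.15 to 0.21 for the members, and 31 to 32 members higher and 21 to 22 lower.

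Members with a log2 change of at least 1 numbered 11 higher and 3 lower at both smaller pseudocounts, with ERN1 and CRELD2 added, and 7 higher without siControl library 3 or without siOXTR library 1, when MANF and SDF2L1 dropped under 1. The lower count of 3 became 1 under median-ratio scaling, with UGGT1 left (ERO1A -0.98, UGGT2 -0.96), and 2 under quantile scaling and without siControl library 2, where UGGT2 dropped out. Deviations of same-numbered libraries were hardly correlated (-0.0118, -0.0729 and 0.0388). With 3 libraries per group this cannot exclude a pairing with a small effect, and the labels name none. With the replicate block, 9593 genes were called in all, against 9613 without it, and 32 members were higher and 21 lower. Unknown depth leaves counting error unmeasured.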
